A study of Mus musculus with 36 samples.

Results

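The inter-alpha-trypsin inhibitor family was described in the livers of mice with an altered thyroid hormone receptor beta (THRB). Its members were taken by gene name from the deposited count table and comprised 6 of the 54532 genes counted: *Itih1*, *Itih2*, *Itih3*, *Itih4*, *Itih5* and *Ambp*. All 6 were among the 17994 genes with enough counts to be tested. The family was chosen by name with the measured differences between genotypes in view, so its levels by genotype are given as a description. No p-value is given for the genotype difference of a member over all times. The interaction p-values of members given below are a description too. Livers came from 36 male mice aged 2 to 3 months on normal chow under 12 h of light and 12 h of darkness. Of these, 18 were controls with 1 altered copy of the gene (THRB+/-, herein THRB-WT) and 18 were homozygous knockouts (THRB-/-, herein THRB-KO). In each genotype 3 mice, lettered a, b and c, were sampled at each of 6 times 4 h apart, from ZT2 to ZT22 (zeitgeber time, counted in hours from lights on). The altered allele is described as impairing the binding of THRB to DNA, and no deletion restricted to the liver is named, so differences in the liver need not start there. Every control carries the altered allele as well. The line is given as B6.129S1-Thrbtm1Df/J, bred on C57Bl/6NCrl.

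The libraries of THRB-WT mice held 29063273 to 39913574 counts and those of THRB-KO mice 31008555 to 42530551. In CPM (read counts scaled to a common library size), *Thrb* stood at 28.9 ± 3.69 in the controls and 31.5 ± 2.70 in the knockouts (SD, n = 18 each). Counts per gene do not separate altered from intact transcripts, so this level gave no check of the genotype labels. The tissue label was met by the hepatocyte markers: 6 genes including *Alb* (albumin) summed to between 65390 and 96657 CPM. Of the 4 genes of a pancreas list, the enzymes *Prss2*, *Cpa1* and *Pnlip* had no counts in 35 of 36 libraries each. The other, *Cela1*, was counted in every library, at 12.9 to 45.9 CPM (median 28.2).

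As background, inter-alpha-trypsin inhibitors are plasma proteins assembled in hepatocytes from heavy chains and a light chain. *Itih1*, *Itih2* and *Itih3* encode heavy chains, which are cleaved from larger precursors and joined to bikunin, the light chain, through a chondroitin sulfate chain. Bikunin carries Kunitz protease inhibitor domains and is made from the *Ambp* precursor, which also yields alpha-1-microglobulin. In tissues the heavy chains can be passed on to hyaluronan, which stabilises the matrix around cells. *Itih4* encodes a related plasma protein that is not joined to bikunin and is known as an acute phase protein, and *Itih5* is a family member expressed mainly outside hepatocytes.

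In GRCm38, *Itih4* (ENSMUSG00000021922, chr14:30886476-30902353, plus strand), *Itih3* (ENSMUSG00000006522, chr14:30908572-30923760, minus strand) and *Itih1* (ENSMUSG00000006529, chr14:30929180-30943289, minus strand) lay side by side within 56.8 kb of chromosome 14, with gaps of 6.22 and 5.42 kb. This segment began 12.8 Mb from *Thrb* (chr14:17660261-18038090). *Itih2* (ENSMUSG00000037254, chr2:10094593-10131396, minus strand) and *Itih5* (ENSMUSG00000025780, chr2:10153571-10256529, plus strand) were neighbours on chromosome 2 with a gap of 22.2 kb, and *Ambp* (ENSMUSG00000028356, chr4:63143275-63154799, minus strand) lay on chromosome 4. No annotated gene overlapped a member, and no transcript of another gene matched a member with at least 95% identity over 100 bases or more.

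The bases before the RefSeq start of the 3 chromosome 14 genes (RefSeq, GRCm38.p6) are shown because these genes share the chromosome of *Thrb* but not the difference between genotypes described below. Each runs 5′ to 3′ on the strand of its gene, and capitals mark matches on either strand to 4 motifs searched for: AGGTCA (the half-site bound by nuclear receptors such as THRB), CACGTG (an E-box, bound by clock factors), TTCNNNGAA (a STAT motif) and GTTAAT (an HNF1 half-site). For *Itih3* only the 77 bases outside the first annotated exon are printed, from a window of 250 bases (chr14:30923588-30923837).
Itih4, chr14:30886226-30886475, plus strand: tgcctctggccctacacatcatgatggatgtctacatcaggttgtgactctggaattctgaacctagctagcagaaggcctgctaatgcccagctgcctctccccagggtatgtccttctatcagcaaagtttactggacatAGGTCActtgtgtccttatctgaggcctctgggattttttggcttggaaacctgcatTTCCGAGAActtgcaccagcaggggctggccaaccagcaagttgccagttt
Itih3, chr14:30923761-30923837, minus strand: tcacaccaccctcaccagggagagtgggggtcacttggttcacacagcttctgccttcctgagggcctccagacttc
Itih1, chr14:30943290-30943539, minus strand: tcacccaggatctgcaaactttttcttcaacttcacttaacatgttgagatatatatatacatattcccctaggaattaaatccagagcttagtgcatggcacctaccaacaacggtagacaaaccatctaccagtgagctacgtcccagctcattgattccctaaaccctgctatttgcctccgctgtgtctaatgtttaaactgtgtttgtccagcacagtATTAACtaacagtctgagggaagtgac
Over the whole windows of 250 bases, *Itih4* held AGGTCA once, beginning 108 bases before the start, and TTCNNNGAA once, 51 bases before it. *Itih1* held GTTAAT once, on the other strand, and *Itih3* held none of the 4. Of the remaining members, *Ambp* held AGGTCA in 2 places, 180 and 6 bases before its RefSeq start, while *Itih2* and *Itih5* held no match. The windows of *Ambp* (chr4:63154173-63154422) and *Itih2* (chr2:10130684-10130933) lie inside the gene spans given above, whose outer ends are not the RefSeq starts. Among 32851 windows of the same length in the reference table, 14% held AGGTCA, 6.02% CACGTG, 7.02% TTCNNNGAA and 6.43% GTTAAT. These matches describe letters only, and binding was not measured.

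Per length, the light chain precursor was far more abundant than the heavy chains. Over all 36 mice *Ambp* stood at 2287 ± 159.6 CPM per kilobase of gene length (SD, n = 36), which was 6.29 times the level of *Itih4* on average over mice. *Itih4* followed at 368 ± 43.7, *Itih2* at 272 ± 39.4, *Itih1* at 196 ± 23.5 and *Itih3* at 186 ± 43.7 CPM per kilobase (SD, n = 36 each). *Itih5* came last at 2.23 ± 0.654 CPM per kilobase (SD, n = 36). The ranges of *Ambp* and of *Itih5* were separate from those of every other member, whereas neighbours among the other 4 overlapped, with *Itih4* between 290.3 and 480.0, *Itih2* between 222 and 378, *Itih1* between 153 and 255, and *Itih3* between 99.3 and 292 CPM per kilobase. Within a mouse, the per-length level of *Itih2* was above that of *Itih1* in every library, with ratios from 1.11 to 1.75. Together the 6 genes took 0.608 to 0.789% of the normalised library size, to which *Ambp* contributed most.

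**Figure D1:**
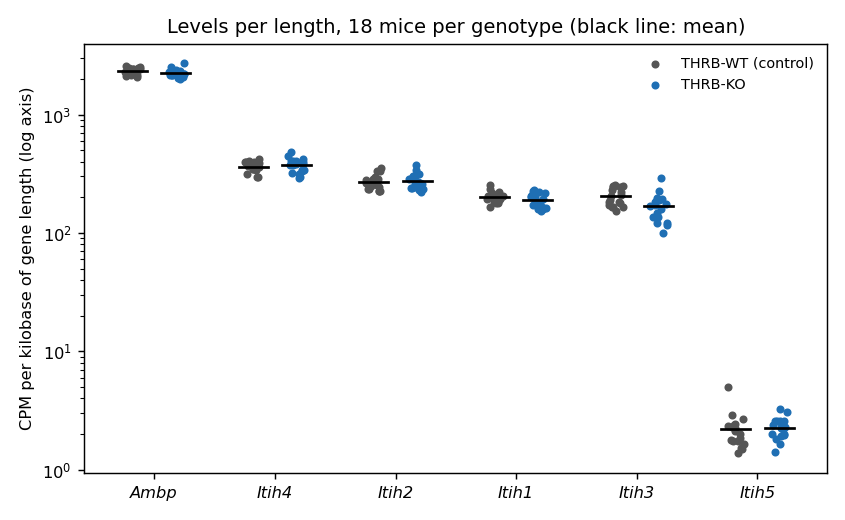
Level of each family member in CPM per kilobase of gene length (log axis) in 18 THRB-WT (grey) and 18 THRB-KO mice (blue), 1 point per mouse, with black lines at the means. *Ambp* stood at 2287 and *Itih5* at 2.23 CPM per kilobase on average, and the 4 members between them overlapped with their neighbours in rank.

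*Itih3*, a heavy chain gene, had a lower mean in THRB-KO than in THRB-WT livers, as did *Itih1* and *Ambp*, described below. It was counted at 739.9 ± 126 CPM in THRB-WT mice (SD, n = 18; lowest 556, median 719, highest 923) and 611 ± 166 CPM in THRB-KO mice (SD, n = 18; lowest 361, median 624, highest 1062). The log2 fold change of THRB-KO over THRB-WT was -0.29 (standard error 0.075), a level 0.817 times that of the controls. Over the whole day the ranges overlapped, and the single highest value of all 36 mice belonged to a THRB-KO liver. Over all genes, edgeR's quasi-likelihood test with sampling time in the model called 171 of 17994 for genotype (0.95%), 80 of them lower in THRB-KO (0.445%) and 91 higher (0.506%). *Itih3* was the 1 member of 6 among these calls, and since the family was picked with this contrast in view, nothing is read from that count. Ranked by p it was 165th, close to the edge of the 171 calls.

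The difference in *Itih3* was unevenly spread over the sampling times. At ZT10, the values were 597, 604 and 602 CPM in mice a, b and c of THRB-WT and 494, 445 and 361 CPM in THRB-KO. At ZT22, they were 756, 903 and 907 CPM in THRB-WT and 499, 423 and 661 CPM in THRB-KO. At these times all 3 THRB-KO mice lay below all 3 controls, with differences between the means of log2 CPM of -0.48 and -0.72. Such separation with THRB-KO below held for 6.65% of all tested genes at ZT2, 4.2% at ZT6, 3.97% at ZT10, 5.39% at ZT14, 5.16% at ZT18 and 4.86% at ZT22, and for 4.15% at 2 or more times. With THRB-KO above, the shares in the same order were 6.21, 4.21, 3.98, 4.84, 5.22 and 5.07%. At ZT18, the values were 686, 881 and 753 CPM in THRB-WT against 440.5, 695 and 620.1 CPM in THRB-KO, so 1 THRB-KO mouse lay above the lowest control. At ZT2, they were 923, 889 and 840.3 CPM against 1062, 698 and 818 CPM. At ZT6, they were 648, 556 and 670.2 CPM against 628, 541 and 642 CPM. The genotypes were mixed at ZT2 and ZT6, as also at ZT14, with 804, 631 and 666 CPM in THRB-WT and 679.9, 581 and 713 CPM in THRB-KO. The mean was lower in THRB-KO at 6 of 6 times, which held for 4.1% of all tested genes, and the log2 difference ranged from -0.72 to -0.049.

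Mice a at ZT2 in both genotypes stood out by the highest mean log2 level of 8 acute phase genes, and the THRB-KO one of them had the highest *Itih3* level. Without these 2 mice, a choice made after seeing the data, the log2 fold change of *Itih3* was -0.32, with 128 genes called over all and *Itih3* among them. With every mouse lettered a, b or c left out in turn, the log2 fold change stayed between -0.32 and -0.25, but *Itih3* was no longer called, and 40, 81 and 68 genes were called over all. With sampling times pooled, it was -0.28 and not called, with 65 genes called over all. Cell type marker lists were summed in each mouse. The hepatocyte list gave 65390 to 90422 CPM in THRB-WT and 73927 to 96657 CPM in THRB-KO, the stellate cell list 181 to 421 and 256 to 456 CPM, and the endothelial list 94.2 to 194 and 117 to 211 CPM. For Kupffer cells the sums were 132 to 449 and 133 to 263 CPM, for cholangiocytes 34.2 to 63.6 and 27.2 to 51.4 CPM, for mesothelial cells 5.25 to 17.8 and 3.20 to 13.7 CPM, for blood 119 to 869 and 105 to 562 CPM, and for pancreas 17.5 to 45.9 and 12.9 to 42.5 CPM. Of the tested genes 0 were called for genotype in each list, but the log2 fold change was negative, as for *Itih3*, in 6 of 6 Kupffer, 5 of 5 cholangiocyte, 4 of 4 mesothelial and 4 of 4 blood genes, against 4 of 6 hepatocyte genes, 3 of 7 stellate and 3 of 6 endothelial ones. The part of these cells in the level of *Itih3* was not tested. In bulk tissue, fewer cells of a type and less RNA per cell cannot be told apart.

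**Figure D2:**
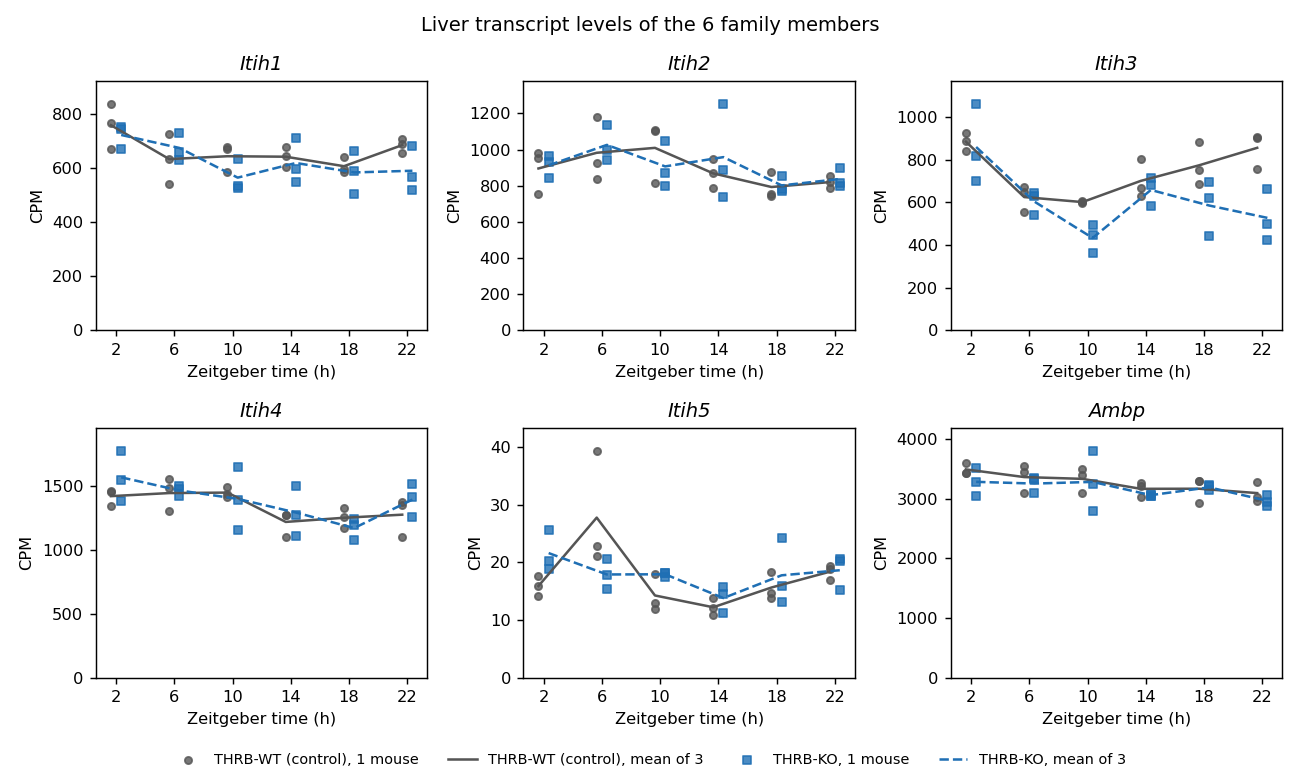
Level of each family member in CPM (linear axes from 0, a scale of its own per gene) against zeitgeber time in hours. Points are single mice, 3 per genotype and time, and lines join the means of THRB-WT (grey circles, solid) and THRB-KO (blue squares, dashed). The genotypes are separate for *Itih3* at ZT10 and ZT22, and 1 THRB-WT mouse at ZT6 stands apart for *Itih5* at 39.4 CPM.

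The other members showed small differences between genotypes. The heavy chain gene *Itih1* stood at 663 ± 70.9 CPM in THRB-WT and 627 ± 81.4 CPM in THRB-KO (SD, n = 18 each; log2 fold change -0.082, standard error 0.048), with a range of 543 to 839 CPM in the former and 504 to 754 CPM in the latter. Its partner *Itih2* stood at 895 ± 129.7 and 907 ± 135 CPM (SD, n = 18 each; log2 fold change 0.021, standard error 0.059). *Itih4*, the acute phase member, was measured at 1339.8 ± 129.7 and 1378 ± 189 CPM (SD, n = 18 each; log2 fold change 0.038, standard error 0.047). All 3 ranges overlapped between genotypes, with *Itih2* at 744 to 1179 CPM in THRB-WT and 737 to 1253 CPM in THRB-KO. *Itih4* ranged from 1101 to 1548 CPM in THRB-WT and from 1071 to 1771 CPM in THRB-KO. At none of the 6 times did the genotypes separate for any of these 3 genes. *Ambp* was the steadiest member, at 3271 ± 209 and 3174 ± 235 CPM (SD, n = 18 each; log2 fold change -0.043, standard error 0.033), with 5 of 6 times lower in THRB-KO by mean and no time without overlap. *Itih5* stood at 17.4 ± 6.43 and 17.9 ± 3.66 CPM (SD, n = 18 each; log2 fold change 0.085, standard error 0.0998). Relative to its neighbour, *Itih3* had a per-length ratio to *Itih1* of 1.01 ± 0.143 among controls and 0.878 ± 0.190 among knockouts (SD, n = 18 each), with ranges of 0.804 to 1.24 and 0.621 to 1.43 that overlapped.

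*Itih5* was the member whose genotypes separated in both directions. At ZT2, the values were 15.9, 17.7 and 14.2 CPM in mice a, b and c of THRB-WT and 18.9, 20.3 and 25.7 CPM in THRB-KO, all higher. At ZT6, they were 21.03, 39.4 and 22.9 CPM in THRB-WT and 20.5, 15.4 and 17.8 CPM in THRB-KO, all lower. Of all tested genes, 6.21% were separated like this at ZT2 and 4.2% at ZT6. The control with 39.4 CPM had the highest sum of the 5 cholangiocyte markers of all libraries (63.6 CPM). THRB-WT mouse b at ZT2 came next with 63.5 CPM, and had 17.7 CPM of *Itih5*. Of 36 libraries, the former was 6th for the mesothelial list (12.5 CPM), 16th for blood and 17th for the stellate cell list (348 CPM). It was 25th for the Kupffer and pancreas lists, 26th for the endothelial and 29th for the hepatocyte list. The part of these cells in its *Itih5* level was not tested.

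Because *Itih1*, *Itih3* and *Itih4* lie on the chromosome of *Thrb*, both copies of this segment in a knockout, and 1 copy in a control, could descend from the chromosome on which the allele was made. Effects of sequence linked to the allele and of the loss of the receptor cannot be told apart by these groups. The 3 members of the segment differed among themselves, with log2 fold changes of 0.038 for *Itih4*, -0.29 for *Itih3* and -0.082 for *Itih1*. Within 500 kb of the segment 27 protein-coding genes were tested, and of the 24 that are not members 0 were called for genotype by edgeR, against 0.95% of all genes. Their log2 fold changes had a median of -0.014, against -0.0011 over all tested genes, and 14 of 24 were negative. They ranged from -0.24 for *Smim4* (standard error 0.088) to 0.29 for *Sema3g* (standard error 0.45), which was counted at 0.157 and 0.231 CPM only. The nearest genes gave 0.0089 (standard error 0.112) for *Mustn1* at 4.87 kb, -0.040 (standard error 0.058) for *Nek4* at 8.09 kb and -0.054 (standard error 0.039) for *Tmem110* at 9.27 kb.

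**Figure D3:**
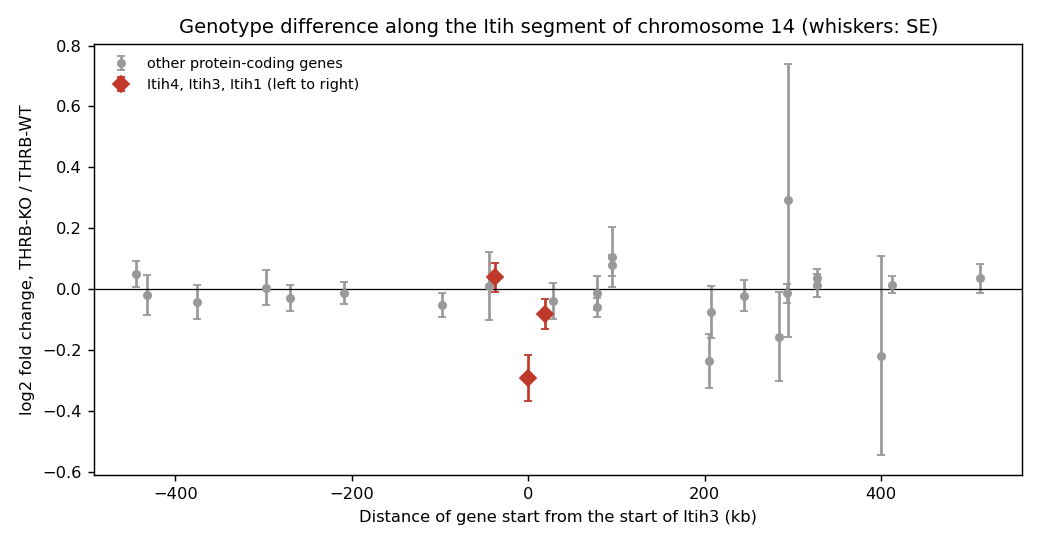
Log2 fold change of THRB-KO over THRB-WT for the 27 protein-coding genes within 500 kb of the *Itih* segment, against the distance of each gene's start from the start of *Itih3* in kb. Whiskers are standard errors, red diamonds mark *Itih4*, *Itih3* and *Itih1* from left to right, and grey points the other 24 genes. *Itih3* stands at -0.29, *Itih4* at 0.038 and *Itih1* at -0.082, and the other 24 genes range from -0.24 to 0.29.

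Time of day is a contrast other than genotype and was tested over both genotypes. Which values led to the choice of the family is not recorded beyond the genotype difference, so that time of day played no part in it is an assumption. In total, 4 of 6 members changed with sampling time by edgeR's quasi-likelihood test at an adjusted p under 0.05, a count to be read against 45% of all tested genes. *Itih3* varied most clearly (edgeR, adjusted p = 3.59e-04): the mean over both genotypes was 872 ± 121 CPM at ZT2 and 517 ± 101 CPM at ZT10 (SD, n = 6 each). *Itih5* (edgeR, adjusted p = 0.00486) moved between 13.0 ± 1.96 CPM at ZT14 and 22.8 ± 8.52 CPM at ZT6 (SD, n = 6 each). *Itih4* (edgeR, adjusted p = 0.00994) moved between 1208 ± 85.1 CPM at ZT18 and 1490.4 ± 154 CPM at ZT2, and *Itih1* (edgeR, adjusted p = 0.0208) between 596 ± 55.2 CPM at ZT18 and 742 ± 63.7 CPM at ZT2 (SD, n = 6 each). *Itih2*, with means from 797 ± 54.6 CPM at ZT18 to 1004 ± 130.4 CPM at ZT6 (SD, n = 6 each), lay just outside the threshold (edgeR, adjusted p = 0.0536), and *Ambp*, from 3031 ± 139.6 CPM at ZT22 to 3389 ± 198 CPM at ZT2 (SD, n = 6 each), further from it (edgeR, adjusted p = 0.125). The call of *Itih1* was lost without mice a, b or c (edgeR, adjusted p from 0.0804 to 0.129), that of *Itih4* without mice a (edgeR, adjusted p = 0.238), and that of *Itih5* without mice a or c (edgeR, adjusted p = 0.0703 and 0.0654). *Itih2* passed by DESeq2 (likelihood ratio test, adjusted p = 0.0297), with the letter as a block (edgeR, adjusted p = 0.0187) and without the THRB-WT mouse b at ZT6, left out after seeing the data (edgeR, adjusted p = 0.0290).

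Fitted with a 24 h wave in each genotype alone, 4 of 6 members were rhythmic in THRB-WT, where 33% of all tested genes were, and 1 of 6 in THRB-KO, where 28.9% were. The adjusted p-values are edgeR's, while amplitudes, peaks and standard errors of members are from a linear fit of the same wave to log2 CPM. *Itih3* was rhythmic in THRB-WT mice (edgeR, adjusted p = 9.05e-04), with an amplitude of 0.28 on the log2 scale and a peak at ZT 22.2 ± 0.700 h (standard error). In THRB-KO it did not pass (edgeR, adjusted p = 0.344), with an amplitude of 0.19 and a peak at ZT 0.785 ± 2.54 h (standard error), but with sampling time as a factor instead of a wave it did (edgeR, adjusted p = 0.0166). *Itih4* was rhythmic in both, peaking at ZT 5.73 ± 1.01 h in THRB-WT (edgeR, adjusted p = 0.0392) and at ZT 4.12 ± 1.18 h in THRB-KO (edgeR, adjusted p = 0.0448; standard errors). *Itih2* peaked at ZT 7.66 ± 1.27 h in THRB-WT (standard error; edgeR, adjusted p = 0.0482) and *Itih5* at ZT 3.30 ± 1.41 h (standard error; edgeR, adjusted p = 0.0433). In THRB-KO their fitted peaks were ZT 7.19 ± 1.77 h and ZT 2.04 ± 1.44 h (standard errors), with adjusted p = 0.217 and 0.0997 by edgeR. *Itih1* did not pass in either genotype (edgeR, adjusted p = 0.171 and 0.182), nor did *Ambp*, whose amplitudes of 0.071 and 0.049 were the lowest of the family (edgeR, adjusted p = 0.287 and 0.562). Among these calls, only that of *Itih3* in THRB-WT held without mice a, b or c in turn. With sampling time as a factor *Itih4* passed in neither genotype (edgeR, adjusted p = 0.220 and 0.203), nor *Itih2* in THRB-WT (edgeR, adjusted p = 0.328). Without the filter on low counts *Itih4* also missed the threshold in THRB-WT and THRB-KO (edgeR, adjusted p = 0.0812 and 0.0611), as did *Itih2* in THRB-WT (edgeR, adjusted p = 0.0521). Without the THRB-WT mouse b at ZT6 the adjusted p by edgeR was 0.0587 for *Itih5* and 0.0480 for *Itih1*.

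Passing in one genotype and not in the other does not show a difference, which was tested by the interaction of genotype and sampling time. By edgeR, 0 of 17994 genes passed an adjusted p of 0.05, and 484 (2.69%) had an unadjusted p under 0.05. DESeq2 likewise gave 0, with 609 at an unadjusted p under 0.05. The members were chosen with differences between genotypes in view, and this test draws on the same differences. Their p-values are therefore given as a description, and nothing is read from them. Among the members, *Itih5* (unadjusted p = 0.0166) and *Itih3* (unadjusted p = 0.0348) were under 0.05 before adjustment, and after it all 6 stood at 0.9999 (edgeR with Benjamini-Hochberg adjustment). Without the THRB-WT mouse b at ZT6 the unadjusted p was 0.143 for *Itih5* and 0.0531 for *Itih3* in edgeR. With same-lettered mice of a sampling time taken as pairs it was 0.0665 for *Itih5* and 0.00421 for *Itih3*, and without the filter on low counts 0.00245 and 0.00879, all unadjusted p by edgeR with adjusted values of 0.953 or more. A difference between genotypes in the daily course of these genes was not shown.

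Variation between mice that neither genotype nor time explains was examined by subtracting each group's mean from log2 CPM, and 21 relations were tested: 15 pairs of members, and each member with the mean of 8 acute phase genes. The groups were permuted within themselves 100000 times (two-sided), and 3 relations passed after adjustment over the 21, by Pearson's r and by Spearman's rho alike. The heavy chain genes *Itih1* and *Itih2*, which lie on different chromosomes, varied together (r = 0.763, permutation p = 7.00e-05, adjusted p = 0.00147; rho = 0.723, permutation p = 1.70e-04, adjusted p = 0.00357; n = 36). *Itih2* and *Ambp*, a heavy and the light chain, were inversely related (r = -0.550, permutation p = 5.40e-04, adjusted p = 0.00567; rho = -0.608, permutation p = 9.20e-04, adjusted p = 0.00966). *Itih2* was also lower where the acute phase mean was higher (r = -0.549, permutation p = 0.00436, adjusted p = 0.0305; rho = -0.572, permutation p = 0.00559, adjusted p = 0.0391).

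Leaving out the 2 mice farthest from the median of the first measure, r was 0.773 for *Itih1* and *Itih2*, -0.593 for *Itih2* and *Ambp*, and -0.507 for *Itih2* and the acute phase mean. Within mice a, b and c (n = 12 each), r was 0.455, 0.864 and 0.671 for *Itih1* and *Itih2*. It was 0.040, -0.846 and -0.393 for *Itih2* and *Ambp*, so that relation did not hold among mice a. For *Itih2* and the acute phase mean it was -0.304, -0.202 and -0.385. Without mice a, b or c the 3 relations no longer passed the adjustment, with r from 0.747 to 0.802, from -0.751 to -0.313 and from -0.673 to -0.303 in the same order. The deviations also followed the letter: 11 of 12 mice a lay above their group's mean for the acute phase genes, against 4 of 12 mice b and 2 of 12 mice c, and 11 of 12 mice a lay below it for *Itih2*. The permutation treats the 3 mice of a group as exchangeable, so its p-values do not set the letter apart. With the mean of each letter subtracted as well, a step added after seeing the data, *Itih1* and *Itih2* still passed (r = 0.675, permutation p = 6.20e-04, adjusted p = 0.0130). *Itih2* and *Ambp* did not (r = -0.408, permutation p = 0.0550, adjusted p = 0.157), nor did *Itih2* and the acute phase mean (r = -0.278, permutation p = 0.174, adjusted p = 0.280), and the part of the letter in these relations cannot be told apart. Of the 21 relations 5 passed in this form, the others being *Itih1* with *Itih3* (r = 0.528, adjusted permutation p = 0.0464) and with *Itih4* (r = 0.546, adjusted permutation p = 0.0391), *Itih2* with *Itih4* (r = 0.558, adjusted permutation p = 0.0373) and *Itih3* with the acute phase mean (r = 0.535, adjusted permutation p = 0.0373). *Itih3*, unlike *Itih2*, had a positive r with the acute phase mean (r = 0.402, permutation p = 0.0280, adjusted p = 0.0736; rho = 0.327, permutation p = 0.0800, adjusted p = 0.153), which missed the threshold. The neighbours *Itih1* and *Itih3* (r = 0.434, adjusted permutation p = 0.110) and *Itih3* and *Itih4* (r = 0.418, adjusted permutation p = 0.115) missed it as well, although the latter passed without mice b (r = 0.720, adjusted permutation p = 0.00924).

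**Figure D4:**
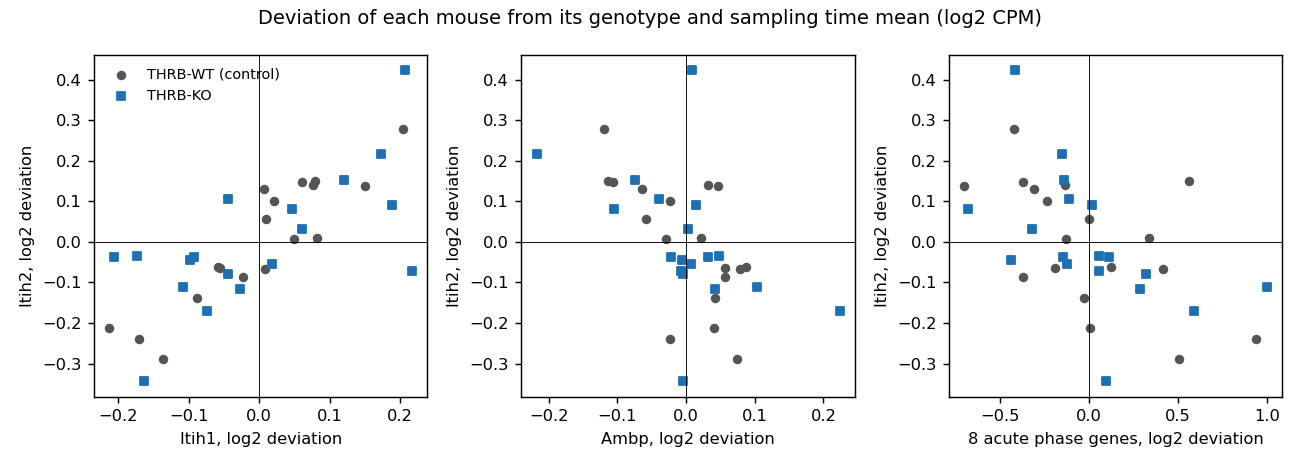
Deviation of each of 36 mice from the mean of its genotype and sampling time in log2 CPM, for *Itih2* (vertical axes) against *Itih1*, *Ambp* and the mean of 8 acute phase genes (horizontal axes). Grey circles are THRB-WT and blue squares THRB-KO mice. Points rise from left to right for *Itih1* (r = 0.763) and fall for the other two (r = -0.550 and -0.549).

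Genes that act with the family were described from 6 lists. Of the hyaluronan matrix list, which holds *Tnfaip6*, whose product transfers heavy chains to hyaluronan, 5 of 8 genes were tested, and *Ptx3*, *Has1* and *Has2* had under 100 counts in all. *Hapln1*, which links hyaluronan to proteoglycans, was the 1 gene called for genotype of the 43 tested in all 6 lists, against 0.95% of all tested genes. It stood at 0.272 ± 0.247 CPM in THRB-WT and 0.0969 ± 0.123 CPM in THRB-KO (SD, n = 18 each), a level of a few reads per library. Its log2 fold change was -1.52 (standard error 0.33). The lists were chosen with earlier results of these data known, so nothing is read from this call and no p-value is given for it. *Tnfaip6* itself was as scarce, at 0.0988 ± 0.0561 and 0.146 ± 0.119 CPM (SD, n = 18 each), and was not called. The lists of hyaluronan clearance, chondroitin sulfate synthesis, precursor cleavage, Kunitz inhibitors and acute phase had 0 genes called for genotype of 6, 15, 4, 5 and 8 tested, with median log2 fold changes of -0.044, 0.0099, 0.034, 0.038 and -0.076. No gene of the 6 lists passed the interaction test.

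Of the 43 tested genes of these lists 17 changed with time of day (39.5%), below the 45% of all tested genes. This was so for 8 of 15 genes of chondroitin sulfate synthesis, led by *B3gat3* (edgeR, adjusted p = 8.42e-09), *B4galt7* (7.90e-08) and *Chst13* (3.01e-06), which encode enzymes that build the linkage to the core protein or sulfate the chain. *B3gat3*, at 50.4 ± 11.6 CPM in THRB-WT and 47.2 ± 9.20 CPM in THRB-KO (SD, n = 18 each), had fitted peaks at ZT 23.9 and ZT 0.771 h, and *B4galt7* at ZT 16.3 and ZT 17.1 h. For hyaluronan clearance it was 5 of 6, led by the receptor gene *Lyve1* (edgeR, adjusted p = 0.00815) and the hyaluronidase genes *Hyal2* (0.0187) and *Tmem2* (0.0206). *Furin*, a proprotein convertase, was the 1 of 4 in precursor cleavage (edgeR, adjusted p = 9.32e-05), with fitted peaks at ZT 6.90 and ZT 6.54 h. The hyaluronan matrix list (*Hapln1*, edgeR, adjusted p = 1.72e-06), the Kunitz inhibitors (*Tfpi*, 0.00268) and the acute phase list (*Orm2*, 0.00512) had 1 gene each.

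As a description over the 36 libraries, which share depth, sampling time and genotype, the genes whose log2 CPM ran most like each member were looked up among 12641 genes. *Itih2* ran closest to *Pzp* (r = 0.893), followed by *Cep170b* (0.826) and *Slk* (0.814). *Itih1* ran closest to *Mug2* (r = 0.697), with *Limk2* (0.688) and *B930095G15Rik* (0.653) next. *Pzp* and *Mug2* encode plasma protease inhibitors of the alpha-2-macroglobulin family. *Itih4* ran closest to *Il13ra1* (r = 0.806), *Plg*, which encodes plasminogen (0.792), and *Lrp1* (0.791). *Itih3* ran closest to *Slc41a2* (r = 0.765), *Faap20* (0.736) and *Mst1* (0.697), *Itih5* to *Cd151* (0.783), *Myh10* (0.774) and *Myh14* (0.761), and *Ambp* to *Anapc11* (0.808), *Scrn2* (0.792) and *Scand1* (0.790). Members were left out of this search, and between members r over the same libraries ran from -0.173 for *Itih2* and *Ambp* to 0.656 for *Itih1* and *Itih3*.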

How the data were processed

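Poly-A selected, non-directional libraries of 36 mouse livers were sequenced as read pairs. Per the labels and the methods, the authors mapped reads to GRCm38 with HISAT2 and counted them per gene with featureCounts. They deposited raw, whole counts of 54532 genes. Versions, annotation release and the handling of reads with several matches are not given in the sources used here, and without strand, reads of overlapping genes cannot be separated. Samples were grouped by genotype and sampling time from the labels.

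Genes whose counts summed to at least 100 were kept. After TMM normalisation, edgeR 4.0.16 (R 4.3.3) gave quasi-likelihood tests with Benjamini-Hochberg adjustment and a threshold of 0.05. The models held sampling time and genotype, their interaction, or sine and cosine terms with a period of 24 h. Amplitudes and peaks of members came from a separate linear fit of these terms to log2 CPM, and peaks of list genes from edgeR's coefficients. Log2 CPM values used a prior count of 2. DESeq2 1.42.0 was an alternative, with its size factors, other filters, the replicate block, and leaving out mice. Near-identical transcripts were sought with BLAST 2.17.0 in GENCODE transcripts. For correlations with the letter mean subtracted, 22 independent coordinates of the residuals were permuted. Fits and permutation tests were tested on simulated data. Libraries of a group differed by more than sampling noise (mean chi-square per gene from 32.7 to 136). *Itih5* was the member with the fewest counts (21612 over all libraries).

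Named were all members, list genes past 0.05 for genotype or interaction, up to 3 per list by time of day, the 3 nearest neighbours, and the 3 genes most like each member. *Smim4*, *Sema3g*, *Tnfaip6* and the pancreatic genes were named after their values were seen. Members, lists and motifs were chosen with earlier results of these data known.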

Additional observations from a re-analysis of the deposited data

Results flagged for a closer look

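*Itih5* moved in opposite directions at 2 sampling times. The mean log2 difference of THRB-KO minus THRB-WT was 0.43 at ZT2, where all 3 THRB-KO mice lay above all 3 controls, and -0.58 at ZT6, where all 3 lay below. The difference between times was tested by the interaction of genotype and sampling time in edgeR, with an unadjusted p of 0.0166 and an adjusted p of 0.9999, and an unadjusted p of 0.143 without the THRB-WT mouse with 39.4 CPM. These p-values draw on the same differences that flagged the gene, so nothing is read from them.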

How the results depend on the processing

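No called result changed direction. The uncalled genotype log2 fold change of *Itih2* was -0.0027 without mice c, against 0.021 in all mice. The 171 genotype calls became 306 with DESeq2 (163 shared), 65 with sampling times pooled (61 shared) and 40 to 81 when mice of 1 letter were left out, and the count of members called, 1, became 0 with times pooled and 0 in each of the latter. Members changing with time of day, 4, numbered 1 to 5 when mice of 1 letter, or the THRB-WT mouse b at ZT6, were left out. For the 24 h wave in THRB-WT, 4 members became 2 without the filter on low counts, 2 with sampling time as a factor and 1 to 4 when the same mice were left out, with 3109 to 5557 genes in place of 5936. In THRB-KO, 1 member became 0 without the filter and 0 to 1 when mice of 1 letter were left out, with 2343 to 3192 genes in place of 5201. Of the 21 relations, 3 of which passed, 0 to 1 passed when mice of 1 letter were left out, which also leaves fewer mice, and none of the 3 was among them. With the letter mean subtracted as well, 5 passed, 1 of the 3 among them. The causes of the other changes were not tested. For single members and the 3 relations together, 6 calls were gained and 35 lost over all alternatives. Another 259 values kept their side of the threshold or, without a test, moved by less than 1 SD, or for r by less than a set limit. Genotype values of members were judged there by log2 fold change, so the lost genotype calls of *Itih3* are not among the 35.

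With the replicate block (pairs of mice that share sampling time and letter), 387 genes were called for genotype, 170 of them among the 171, and 1 member; the interaction gave 0 genes, and 861 at an unadjusted p under 0.05. With the letter as a block, *Itih2* passed for time of day (edgeR, adjusted p = 0.0187). Deviations of same-lettered mice correlated over 0.1 in 16 of 18 pairs (range -0.061 to 0.395), and 33 of 36 mice correlated best with their own letter. The labels do not say what the letters stand for. The animal numbers in the labels rise from a to c in 12 of 12 groups, and for 17 of 18 controls the THRB-KO mouse of that sampling time with the nearest number had the same letter. Whether same-lettered mice share a litter or batch is not stated, so they were not treated as pairs.

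Groups of 3 mice limit every value at a single time.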

Other observations

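The mean level of the 8 acute phase genes followed the letter of the mice: 11 of 12 mice a lay above the mean of their genotype and sampling time, against 4 of 12 mice b and 2 of 12 mice c. The mean log2 level, relative to the mean of all libraries, was highest in mouse a at ZT2 of THRB-WT (1.46) and in mouse a at ZT2 of THRB-KO (1.16). *Saa1*, a serum amyloid gene, ranged from 18.1 to 234 CPM in THRB-WT and from 15.9 to 84.6 CPM in THRB-KO mice, and *Orm2*, an orosomucoid gene, from 3.48 to 47.4 and from 3.93 to 55.4 CPM. In these 2 mice *Itih3* stood at 923 and 1062 CPM, *Itih4* at 1455 and 1771 CPM and *Itih2* at 754 and 843 CPM. Each was the highest of the 3 mice of its group at ZT2 for *Itih3* and *Itih4*, and the lowest of the 3 for *Itih2*. For *Itih4* in THRB-WT, mouse b was nearly level with mouse a, at 1453 CPM. Over all 36 mice, with group means subtracted, *Itih4* and the acute phase mean had r = 0.196 (adjusted permutation p = 0.488). These mice were picked out after their values were seen, and the part of an acute phase response in the levels of the family was not tested.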
